A study of Gallus gallus with 2 samples.

Results

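The genes described here encode the presynaptic machinery of the hair cell (HC) ribbon synapse, and they were taken as the rows of the deposited files whose symbol is one of 10 listed names. All 10 were found, each in 1 row, out of 23842 genes in the files. RNA was sequenced from explants of the chick basilar papilla (BP), the auditory epithelium of birds, dissected from male Momiji chicks at posthatch day 1. The post-SM6 explants had spent 48 h with streptomycin (SM), which is an aminoglycoside toxic to HCs, and were then cultured for 6 h more, which is 54 h after the start of exposure. The SM0 explants were taken before any SM exposure. Each time point is 1 library of RNA from 50 pooled BPs, with the tissue around the sensory epithelium removed by thermolysin in both. SM24 and SM48, the other time points of the study, were not analysed here.

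With 1 library per time point, none of the differences below could be checked against replicates, and no test was run. The groups also differ in time in culture, so SM exposure, culture itself and variation between pools cannot be told apart. Expression was deposited as TPM, in which reads are divided by transcript length and each library is brought to the same total. TPM can be compared between genes. Comparison between libraries has a limit, because each value is a share of a fixed total and so depends on the other genes. TPM also does not keep the number of reads behind a value. For each gene, 0.1 was added to both TPM values, and the log2 change is the log2 of the post-SM6 sum over the SM0 sum. It therefore understates differences of genes with low TPM.

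HCs release glutamate onto afferent nerve fibers tonically, and the ribbon, an electron-dense body that tethers synaptic vesicles, is the hallmark of their active zones. Calcium enters through voltage-gated channels clustered beneath the ribbon, and otoferlin takes the place of the synaptotagmins that sense calcium at most neuronal synapses. Much of this is known from mammals, in which mutations of several of these genes cause deafness.

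At post-SM6, 9 of the 10 ribbon synapse genes were lower than at SM0 and 1 was higher. Their summed level was 71.4 TPM at post-SM6 and 439 TPM at SM0, so that the later library held 16.2% of the earlier level. In the plot of TPM by gene, the 3 genes that were most abundant at SM0, CABP2, OTOF and SLC17A8, lie far to the left at post-SM6, while CTBP2 and PCLO hardly moved. All 10 genes reached 1 TPM at SM0, and 1 TPM in at least one library was the level at which genes entered the counts. CACNA1D and RIMS2 reached it at SM0 only. Entry through SM0 alone favors a lower value at post-SM6, so counting these genes as lower adds no support. By the 1.3-fold criterion, 8 of the 10 were lower at post-SM6, against 23.3% of 13321 genes, and 0 were higher, against 23.9% of all genes. At 2-fold, the same 8 genes were lower, against 7.81% of all genes, and 0 were higher, against 9.55%. The median log2 change of the 10 genes was -2.14, and that of all 13321 genes was -0.02. In bulk RNA such as this, fewer HCs and less RNA per HC cannot be told apart. In stained sections of other explants, the paper counted virtually no HCs over an interval that includes post-SM6.

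**Figure D1:**
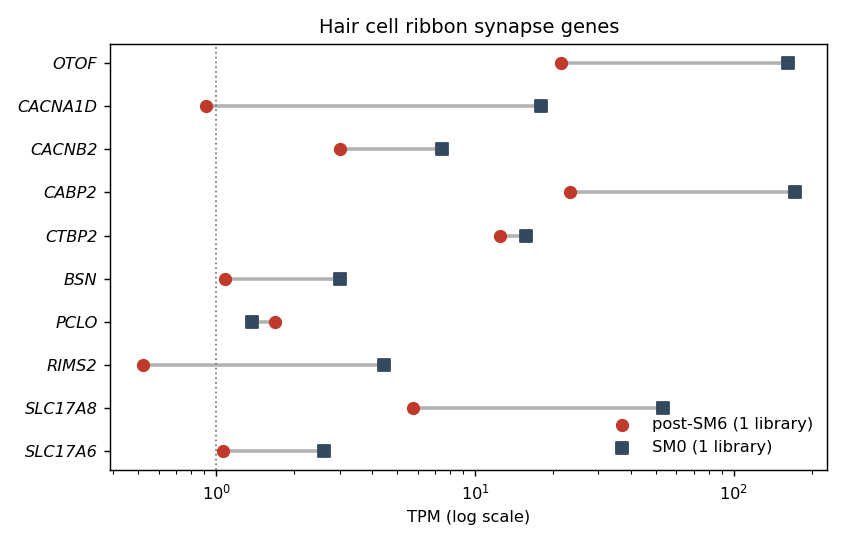
TPM of the 10 ribbon synapse genes (log scale) at post-SM6 (red circles) and SM0 (dark squares), 1 library each; the dotted line marks 1 TPM. The red circle lies left of the square for 9 genes, and PCLO is the exception.

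OTOF encodes otoferlin, the multi-C2-domain calcium sensor that HCs need for vesicle fusion and vesicle replenishment. OTOF had 21.5 TPM at post-SM6 and 162 TPM at SM0. The later level was 13.3% of the earlier one, a log2 change of -2.90. OTOF ranked 187 of 13321 genes, counted from the lowest log2 change.

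CACNA1D encodes the pore-forming subunit of CaV1.3, the L-type channel that carries most of the calcium current of HCs. CACNA1D had 0.91 TPM at post-SM6 and 18.0 TPM at SM0. This was the largest relative difference among the 10 genes, with a log2 change of -4.17 and 5.04% of the SM0 level. CACNB2 encodes an auxiliary beta subunit that helps CaV1.3 reach the membrane. It had 3.02 TPM at post-SM6 and 7.43 TPM at SM0, a log2 change of -1.27. CABP2 encodes a calmodulin-like protein that slows the inactivation of CaV1.3. It was the most abundant of the 10 genes in both libraries, with 23.3 TPM at post-SM6 and 172 TPM at SM0. Its log2 change of -2.88 differed from that of OTOF by 0.02. CACNA1D, CACNB2 and CABP2 were therefore all lower at post-SM6, but to unequal degrees. The ratio of CABP2 to CACNA1D in TPM was 25.6 at post-SM6 and 9.54 at SM0, and the post-SM6 ratio rests on the 0.91 TPM of CACNA1D.

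CTBP2 encodes both RIBEYE, the main structural protein of the ribbon, and the widely expressed transcriptional corepressor CtBP2, which are read from different promoters of the same gene. CTBP2 had 12.5 TPM at post-SM6 and 15.7 TPM at SM0, a log2 change of -0.32 that lies inside the 1.3-fold criterion. The deposited value is per gene and sums all transcripts, of which the RefSeq table of the later assembly GRCg7b lists 15 for CTBP2. RIBEYE and CtBP2 can therefore not be separated, and the value does not show whether RIBEYE transcripts were lower.

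BSN encodes bassoon, the scaffold that anchors the ribbon to the presynaptic membrane. BSN had 1.08 TPM at post-SM6 and 3.02 TPM at SM0, a log2 change of -1.40. PCLO encodes piccolo, a related scaffold of which ribbon synapses use a short isoform in mammals. PCLO was the single gene with a higher value at post-SM6, with 1.68 TPM against 1.38 TPM at SM0. Its log2 change of 0.27 lies inside the 1.3-fold criterion. RIMS2 encodes RIM2, an active zone protein that promotes the clustering of CaV1.3 channels in mouse inner HCs. It had 0.52 TPM at post-SM6 and 4.43 TPM at SM0, a log2 change of -2.87. The scaffold genes thus had low levels in both libraries and differed among themselves, with RIMS2 at 11.7% of its SM0 level, BSN at 35.8% and PCLO at 122%. The log2 change of RIMS2 depended on the pseudocount and was -1.84 with 1 TPM in place of 0.1.

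SLC17A8 encodes VGLUT3, the transporter that fills the synaptic vesicles of HCs with glutamate. SLC17A8 had 5.78 TPM at post-SM6 and 53.2 TPM at SM0. The later level was 10.9% of the earlier one, a log2 change of -3.18. SLC17A6 encodes VGLUT2, the related transporter of many glutamatergic neurons. SLC17A6 had 1.06 TPM at post-SM6 and 2.62 TPM at SM0, a log2 change of -1.23. SLC17A8 was the more abundant of the pair in both libraries, by 5.45-fold at post-SM6 and 20.3-fold at SM0. With a pseudocount of 1, SLC17A6 and BSN came inside the 2-fold limit, with log2 changes of -0.81 and -0.95.

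The order of levels among the 10 genes differed between the libraries, and no spread between replicates is at hand to say which neighbors in it differ. At post-SM6 the order was CABP2, OTOF, CTBP2, SLC17A8, CACNB2, PCLO, BSN, SLC17A6, CACNA1D and RIMS2. At SM0 it was CABP2, OTOF, SLC17A8, CACNA1D, CTBP2, CACNB2, RIMS2, BSN, SLC17A6 and PCLO. CACNA1D was thus at place 9 at post-SM6 and place 4 at SM0, while PCLO was at place 6 at post-SM6 and place 10 at SM0. CABP2, OTOF and SLC17A8 together made up 70.9% of the summed TPM of the 10 genes at post-SM6 and 88.0% at SM0. In the plot of log2 change against level, OTOF, CACNA1D, CABP2, BSN, RIMS2 and SLC17A8 lie below the 5th percentile of all genes, a log2 change of -1.38. CACNB2 and SLC17A6 lie above it, as do CTBP2 and PCLO.

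**Figure D2:**
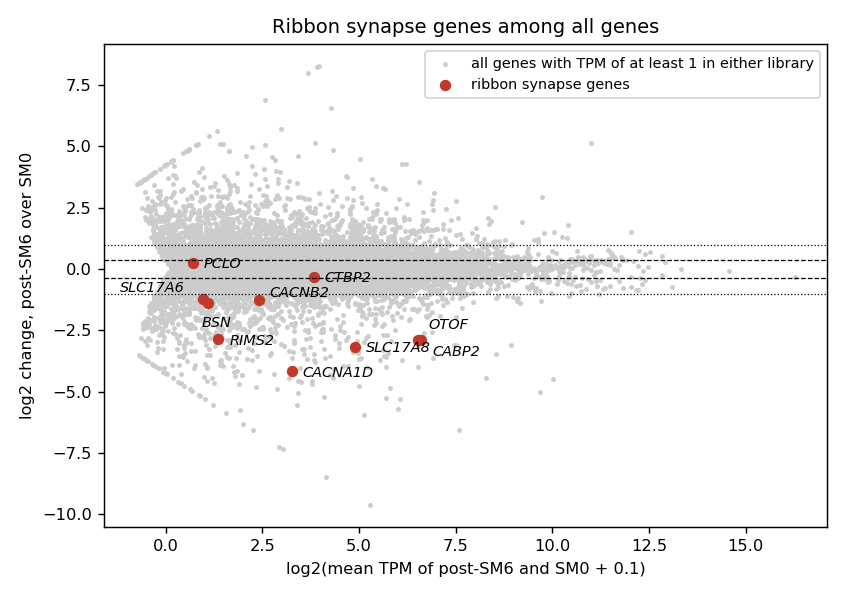
Log2 change (post-SM6 over SM0) against the log2 mean TPM of both libraries for the 13321 genes with at least 1 TPM in either (gray) and the 10 ribbon synapse genes (red); dashed lines mark 1.3-fold and dotted lines 2-fold. CACNA1D lies lowest of the 10 at -4.17, and CTBP2 and PCLO lie between the dashed lines.

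Several of these genes belong to families whose other members are also expressed in the BP, and the share of a family's summed TPM does not depend on how a library is scaled. The families were picked after their values were seen, so the shares are a description only. OTOF made up 18.7% of the summed TPM of 6 ferlin genes at post-SM6 and 65.6% at SM0. The other ferlins summed to 93.6 TPM at post-SM6 and 84.8 TPM at SM0, most of it from MYOF, which encodes myoferlin and had 57.1 TPM at post-SM6 and 47.8 TPM at SM0. CACNA1D made up 5.19% of the TPM of 8 genes for calcium channel pore subunits at post-SM6 and 54.2% at SM0. The other 7 pore subunit genes summed to 16.6 TPM at post-SM6 and 15.3 TPM at SM0. The share of CACNB2 among 3 beta subunit genes was 20.8% at post-SM6 and 39.0% at SM0, and that of RIMS2 among 4 RIM genes was 5.65% at post-SM6 and 24.3% at SM0. The other beta subunit genes summed to 11.5 TPM at post-SM6 and 11.6 TPM at SM0. The sum of the other RIM genes was itself lower, with 8.68 TPM at post-SM6 and 13.8 TPM at SM0. In each of these 4 families the member's share was thus smaller at post-SM6.

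In the other 3 families the member's share was also smaller at post-SM6, by fewer percentage points. CABP2 made up 62.0% of the TPM of 4 CaBP genes at post-SM6 and 66.7% at SM0. Its paralog CABP1 was lower to a like degree, with 13.1 TPM at post-SM6 and 85.3 TPM at SM0, a log2 change of -2.69. CTBP2 made up 8.45% of the TPM of CTBP1 and CTBP2 at post-SM6 and 9.64% at SM0. CTBP1, which encodes the related corepressor CtBP1, was the more abundant gene, with 136 TPM at post-SM6 and 147 TPM at SM0. SLC17A8 made up 84.5% of the TPM of SLC17A8 and SLC17A6 at post-SM6 and 95.3% at SM0, while it exceeded SLC17A6 by 5.45-fold at post-SM6 and 20.3-fold at SM0.

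**Figure D3:**
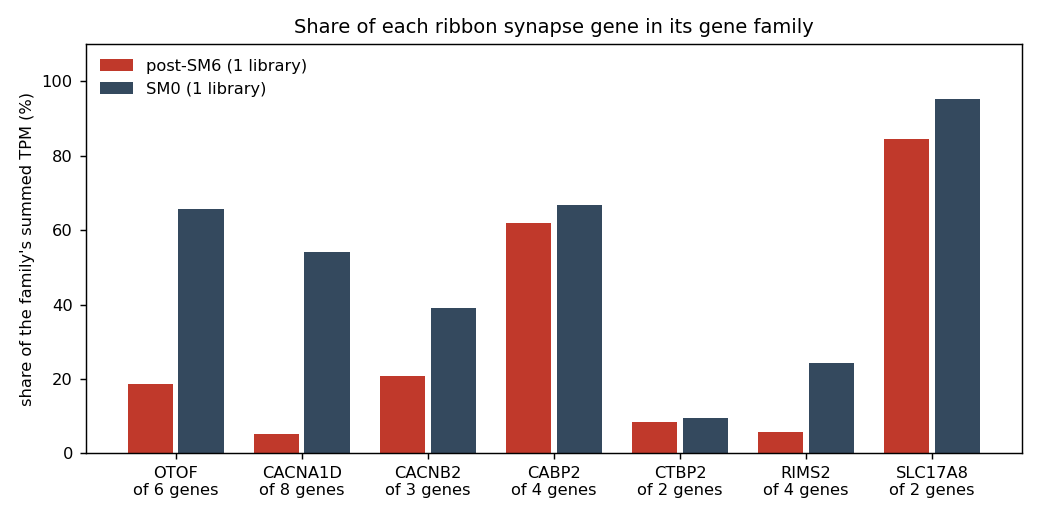
Share (%) of each of 7 ribbon synapse genes in the summed TPM of its gene family at post-SM6 (red, left bar) and SM0 (dark, right bar), 1 library each. CACNA1D has the largest gap, with 5.19% at post-SM6 and 54.2% at SM0, while CABP2 and CTBP2 have nearly level bars.

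Other genes of the synapse were followed in 7 lists, in which genes were counted if they reached 1 TPM in one library or both. As above, entry through one library alone favors a lower value in the other, so such genes add no support to the counts. This holds in the marker lists further below too. Among the genes named from the 7 lists, CACNA1E, UNC13A and ERC2 entered through SM0 alone. The counts below stand beside those of all 13321 genes, of which 23.3% were lower and 23.9% higher at 1.3-fold. At 2-fold, 7.81% of all genes were lower and 9.55% higher. Among 9 other genes for presynaptic calcium channels and CaBPs, 4 were lower at post-SM6 and 2 higher by the 1.3-fold criterion, with a median log2 change of -0.14. With a minimum of 5 TPM, 2 were lower and 0 higher, and the median was -0.65. CABP1 was among the lower genes, as was CACNA2D2, an alpha2delta subunit gene with 6.95 TPM at post-SM6 and 19.4 TPM at SM0. CACNA1E, which encodes an R-type pore subunit, had 0.44 TPM at post-SM6 and 2.75 TPM at SM0.

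Of 15 other active zone scaffold genes, 6 were lower and 1 higher by at least 1.3-fold, with a median log2 change of -0.20. RIMBP2 encodes a protein that links RIM to calcium channels, and it had 5.25 TPM at post-SM6 and 14.9 TPM at SM0. UNC13A encodes a vesicle priming factor of conventional synapses, and it had 0.53 TPM at post-SM6 and 7.81 TPM at SM0, a log2 change of -3.65. ERC2, which encodes a further active zone scaffold, had 0.39 TPM at post-SM6 and 2.33 TPM at SM0, and APBA1, which encodes a Munc18-binding adaptor, had 6.43 TPM at post-SM6 and 14.7 TPM at SM0. The 2 most abundant genes of the list, CTBP1 and LIN7C, differed by less than 1.3-fold. LIN7C had 51.6 TPM at post-SM6 and 55.9 TPM at SM0.

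Of 30 vesicle fusion genes, 14 were lower and 5 higher by at least 1.3-fold, and the median log2 change was -0.20. At 2-fold, 11 were lower and 0 higher. STX3 had the highest log2 change of the 30, 0.91, with 13.3 TPM at post-SM6 and 7.04 TPM at SM0. SYT1, the main calcium sensor of fast neuronal release, had 2.46 TPM at post-SM6 and 8.66 TPM at SM0, and VAMP2, the vesicle SNARE of neurons, had 1.83 TPM at post-SM6 and 8.22 TPM at SM0. NAPB, which encodes a SNAP protein that helps to take SNARE complexes apart, was lower with 3.81 TPM at post-SM6 and 21.7 TPM at SM0. The abundant and widely expressed genes VAMP3 and NAPA differed by less than 1.3-fold, VAMP3 with 338 TPM at post-SM6 and 291 TPM at SM0, and NAPA with 197 TPM at post-SM6 and 161 TPM at SM0.

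Among 11 other ferlin genes and genes for proteins tied to otoferlin, 3 were lower and 1 higher by at least 1.3-fold, 0 were past 2-fold in either direction, and the median log2 change was -0.14. MYO6 encodes the motor myosin VI, which binds otoferlin in mouse, and it had 86.6 TPM at post-SM6 and 118 TPM at SM0. AP2M1, the most abundant gene of the list, had 218 TPM at post-SM6 and 285 TPM at SM0. Both were lower by more than 1.3-fold, with log2 changes of -0.45 for MYO6 and -0.39 for AP2M1. WRB, CAMLG and ASNA1, which were picked after their values were seen, encode the machinery that inserts tail-anchored proteins into membranes, on which otoferlin depends in mouse. All 3 differed by less than 1.3-fold, WRB with 32.1 TPM at post-SM6 and 36.5 TPM at SM0, CAMLG with 26.1 TPM at post-SM6 and 24.2 TPM at SM0, and ASNA1 with 39.7 TPM at post-SM6 and 36.4 TPM at SM0.

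Of 26 genes for synaptic vesicles and endocytosis, 11 were lower and 3 higher by at least 1.3-fold, and the median log2 change was -0.08. DNAJC5B, which encodes a cysteine string protein, had the lowest log2 change of the list, -3.63, with 2.48 TPM at post-SM6 and 31.9 TPM at SM0. SYNGR1, which encodes the vesicle protein synaptogyrin, was the most abundant of the genes lower by 2-fold, with 58.3 TPM at post-SM6 and 163 TPM at SM0. DNM1, which encodes the neuronal dynamin that pinches off vesicles, had 7.82 TPM at post-SM6 and 62.0 TPM at SM0. AMPH, which encodes the endocytic adaptor amphiphysin, had 2.95 TPM at post-SM6 and 21.6 TPM at SM0. The most abundant genes, the clathrin light chains CLTA and CLTB, differed less, CLTA with 250.4 TPM at post-SM6 and 331 TPM at SM0 and CLTB with 191 TPM at post-SM6 and 185 TPM at SM0. SYP encodes synaptophysin, a core protein of synaptic vesicles, and was found only when genes were also matched through RefSeq symbols or synonyms. Which of these matched it was not recorded, so its identity rests on RefSeq alone. SYP was higher, with 17.1 TPM at post-SM6 and 4.21 TPM at SM0, and with it 4 genes of the list were higher by at least 1.3-fold.

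Of 9 genes for glutamate supply and other transmitters, 4 were lower and 1 higher by at least 1.3-fold, with a median log2 change of -0.27, or -0.49 with a minimum of 5 TPM. SLC1A3 encodes GLAST, the transporter with which supporting cells clear glutamate, and it had 76.2 TPM at post-SM6 and 211 TPM at SM0. GLUD1, which encodes glutamate dehydrogenase, had 121 TPM at post-SM6 and 199 TPM at SM0. SLC38A2, the most abundant gene of the list, differed by less than 1.3-fold, with 298 TPM at post-SM6 and 246 TPM at SM0. The 1 higher gene was SLC1A2, with 4.51 TPM at post-SM6 and 3.16 TPM at SM0.

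Genes of the facing membranes and of the efferent synapse had a lower median than the other lists. Of 17 such genes, 11 were lower and 1 higher by at least 1.3-fold, with a median log2 change of -1.30, or -0.67 when genes under 1 TPM were counted too. CHRNA9 and CHRNA10 encode the acetylcholine receptor through which efferent fibers inhibit HCs. CHRNA10 had 9.86 TPM at post-SM6 and 129 TPM at SM0, and CHRNA9 had 1.86 TPM at post-SM6 and 26.8 TPM at SM0. KCNN2, which encodes the potassium channel coupled to this receptor, had 3.11 TPM at post-SM6 and 8.13 TPM at SM0. DLG2, a postsynaptic scaffold gene, had 2.56 TPM at post-SM6 and 10.7 TPM at SM0. NLGN3, an adhesion gene and the most abundant of the list among those inside 2-fold, had 33.4 TPM at post-SM6 and 32.4 TPM at SM0.

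**Figure D4:**
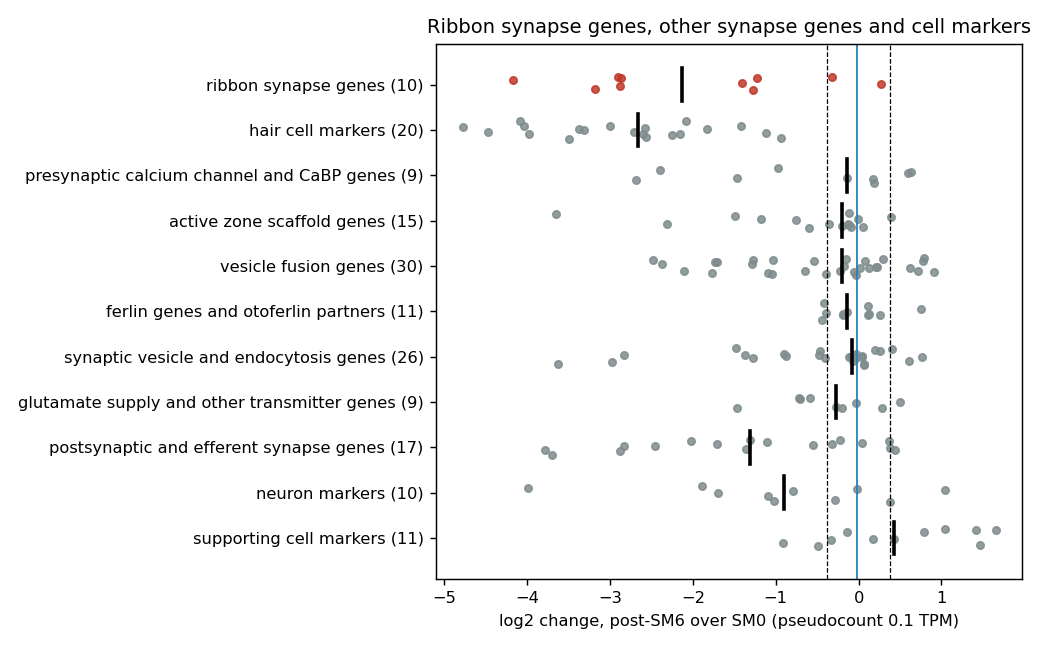
Log2 change (post-SM6 over SM0) of each gene with at least 1 TPM in either library, by list, with the number of rows in brackets; black bars are medians, dashed lines mark 1.3-fold and the blue line is the median of all 13321 genes. The median is -2.14 for the ribbon synapse genes and -2.66 for the HC markers, while 6 of the 7 lists of other synapse genes have medians between -0.27 and -0.08.

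The labels of the BPs were checked against cell markers. The SM0 library is labelled as HCs and supporting cells and the post-SM6 library as supporting cells. ATOH1, a factor of HC differentiation that the paper found upregulated in supporting cells after HC loss, is not among the HC markers used here. For 19 HC marker symbols the files hold 20 rows, because 2 genes carry the symbol POU4F3, and all 20 were lower at post-SM6 by at least 1.3-fold. Their median log2 change was -2.66, within a range of -4.77 to -0.94. Their TPM summed to 255 at post-SM6 and 2788 at SM0, of which OCM held 88.4 TPM at post-SM6 and 1966 TPM at SM0. No HC marker was listed at 0 at post-SM6. KCNMA1, CDH23 and TMIE reached 1 TPM at SM0 only, so counting them as lower adds no support. The log2 changes of 8 of the 10 ribbon synapse genes lie within the HC marker range, and those of CTBP2 and PCLO lie above it. The 8 within it are the genes already counted as lower at 2-fold, against 7.81% of all genes, so the range adds no further support. How many of all 13321 genes lie within the range was not counted. Its upper end of -0.94 is 1 of the 2 POU4F3 rows, and the other row is at -3.98. Of the 11 supporting cell markers, 2 were lower and 6 higher by at least 1.3-fold, with a median log2 change of 0.43. Their TPM summed to 5405 at post-SM6 and 5432 at SM0, of which TECTB, a gene of the tectorial membrane, held 2802 TPM at post-SM6 and 3950 TPM at SM0. The other 10 summed to 2603 TPM at post-SM6 and 1483 TPM at SM0. SOX2, a transcription factor of supporting cells, was the other lower marker, with 77.2 TPM at post-SM6 and 146 TPM at SM0.

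Markers of other cell types moved as well, and their part in these results was not tested. Of 10 neuron marker genes, 6 were lower and 2 higher by at least 1.3-fold. Neurons also use several of the ribbon synapse genes, among them BSN, PCLO, RIMS2 and SLC17A6. How much of the RNA of these genes came from neurons was not tested. Summed neuron marker TPM was 1078 at post-SM6 and 2415 at SM0, of which UCHL1 held 880 TPM at post-SM6 and 1880 TPM at SM0. NEFM was lower, with 6.00 TPM at post-SM6 and 96.8 TPM at SM0. The 2 higher genes were NTRK2, with 30.1 TPM at post-SM6 and 14.5 TPM at SM0, and PRPH, with 9.85 and 7.55 TPM. STMN2 was listed at 0 at post-SM6 and 0.14 TPM at SM0, too low to be counted. Of 8 glia markers, 4 were lower and 1 higher, and they summed to 427 TPM at post-SM6 and 464 TPM at SM0. All 8 fibroblast markers were higher, summing to 475 TPM at post-SM6 and 54.4 TPM at SM0, and all 9 leukocyte markers were higher, summing to 205 TPM at post-SM6 and 45.4 TPM at SM0. Of the leukocyte markers, PTPRC, MARCO, C1QA, C1QB and C1QC reached 1 TPM at post-SM6 only, so counting them as higher adds no support. The 5 erythrocyte marker rows summed to 8.94 TPM at post-SM6 and 20.9 TPM at SM0.

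Finally, the genes closest to OTOF in log2 change were sought among 1212 named genes whose SM0 level was within 2-fold of its own, a likeness that rests on 2 libraries only. The closest was CABP2, another of the 10 genes, with a difference in log2 change of 0.02. C6ORF58 came next, with 13.1 TPM at post-SM6 and 101 TPM at SM0. It was followed by CD164L2, with 37.0 TPM at post-SM6 and 314 TPM at SM0, by CABP1, and by CHGA, which encodes the secretory granule protein chromogranin A and had 18.9 TPM at post-SM6 and 164 TPM at SM0.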

How the data were processed

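Libraries came from poly(A) RNA of 50 pooled BPs each. Before deposit, the authors removed ribosomal reads with Bowtie2 (2.1.0), mapped the remainder to GRCg6a using STAR (2.7.1a) and calculated TPM for each gene with RSEM (1.3.0). The deposited TPM sum to 999999 at post-SM6 and 999997 at SM0, and the smallest value above 0 is 0.01. TPM keeps no depth, so no counting interval is given. The paper states that its supplement gives counts of expressed genes at each time point. Read counts of the 10 genes were not used here, and the count-based calls of the study were not repeated.

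Genes were matched by the symbol in the files. All 10 gene IDs, and 19594 of 23842 in all, were found in the RefSeq table of GRCg7b, which gave current symbols and transcript numbers; no coordinates or sequences are printed. Log2 changes used a pseudocount of 0.1 TPM. The 13321 genes that reached 1 TPM in one library or both entered counts at 1.3-fold, a criterion of the study, and at 2-fold. The text names all 10 genes, in each list up to 8 genes past 2-fold of highest mean TPM and the 2 of highest mean TPM, markers needed beside a result and the 5 genes closest to OTOF, with only some of these printed. The gene families, WRB, CAMLG, ASNA1, SYP, STX3 and SLC1A2 were picked after their values were seen. The 10 genes and the lists were chosen with earlier results of these data known. There were 7 alternatives. The code was tested on simulated data. Python 3.11.15, numpy 2.4.6, pandas 2.3.3 and matplotlib 3.10.9 were used.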

Additional observations from a re-analysis of the deposited data

How the results depend on the processing

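CTBP2 and PCLO stayed inside 1.3-fold under every alternative that kept them, with log2 changes from -0.35 to -0.29 for CTBP2 and from 0.17 to 0.30 for PCLO, and none of the 10 genes changed sign. The median log2 change of the 10 genes was -1.45 with a pseudocount of 1, -2.18 with 0.01, -2.11 with median-ratio scaling over genes that averaged 10 TPM or more, and -2.17 after the 10 most abundant genes were dropped and TPM summed anew. With a minimum of 5 TPM in one library or both, 6 of the genes were counted, with a median of -2.89, and 5 of them were lower at 1.3-fold and 5 at 2-fold, because fewer genes were counted. With a pseudocount of 1, 6 of the 10 genes were lower at 2-fold, without BSN and SLC17A6. Matching through RefSeq symbols or synonyms moved no value of the 10 genes. The largest spread over alternatives was that of RIMS2, from -3.07 to -1.84. Depth limits the genes near 1 TPM most, and by how much cannot be read from TPM. No paired analysis was possible because each time point has 1 library.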
